A study of Mus musculus with 12 samples.

Results

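The genes described here are 10 members of the tumour necrosis factor (TNF) superfamily of mouse CD4+ T cells, 6 receptors and 4 ligands. They were listed by gene symbol, but the list was made with earlier results of these data known. Tnfrsf8, Tnfrsf9, Tnfrsf18, Tnfrsf4, Tnfrsf1b and Cd27 encode receptors, and Tnfsf8, Cd40lg, Tnfsf11 and Tnfsf14 encode ligands. All 10 were among the 32699 gene symbols of the count table, and all 10 were among the 13196 genes that passed a filter on low counts and were tested.

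TNF superfamily ligands are mostly membrane proteins that assemble as trimers and bind cysteine-rich receptors on neighbouring cells. Receptors without a death domain, the class to which these 6 receptors belong, recruit TRAF adaptor proteins, and through them activate NF-κB and support the survival and division of T cells after the first antigen signal. KEAP1 directs the destruction of NRF2, a transcription factor, so NRF2 accumulates in cells that lack KEAP1; NRF2 acts through antioxidant response elements near its target genes.

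The study compared Keap1 knockout (KKO) with wild-type (WT) mouse naive CD4+ T cells that were stimulated in vitro through CD3 and CD28 by antibodies, a substitute for the antigen and costimulatory signals. The groups were KKO at 48 h, WT at 48 h, KKO at 24 h and WT at 24 h of activation, with 3 bulk RNA sequencing libraries in each of the 4 groups. Every group received the same antibodies; no unstimulated cells were among the samples analysed here. The strain, age and sex of the mice, the Keap1 allele and how it was deleted, and whether libraries came from separate mice or cultures are not given in the sources used here, so the p-values measure the spread between these libraries, which may be technical in part.

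The libraries held 17.8 to 32.6 M (mega) counts. Keap1 itself averaged 21.1 CPM in KKO against 125.9 CPM in WT at 48 h, and 16.6 CPM in KKO against 107.0 CPM in WT at 24 h, where CPM is counts per M of the scaled library total. The summed level of 8 T cell markers was high in all groups (2560 to 2860 CPM in KKO and 2510 to 2640 CPM in WT at 48 h; 2080 to 2190 CPM in KKO and 2130 to 2230 CPM in WT at 24 h). Markers of other cells were also read. The 9 B cell markers summed to 47.8 to 78.8 CPM in KKO against 25.2 to 36.3 CPM in WT at 48 h, and to 51.8 to 69.8 CPM in KKO against 25.5 to 32 CPM in WT at 24 h, with no B cell marker at 0 in any group. The 4 regulatory T cell markers summed to 51.3 to 75 CPM in KKO against 39.2 to 47.3 CPM in WT at 48 h, and to 49 to 51.2 CPM in KKO against 30.4 to 35.1 CPM in WT at 24 h, again with none at 0. Foxp3, the defining marker of regulatory T cells, made up a small part of this sum at 48 h, as given below. Low sums of other markers also differed. The 2 CD8 T cell markers summed to 12.7 to 13.4 CPM in KKO against 8.32 to 10.6 CPM in WT at 48 h, and to 9.36 to 10.8 CPM in KKO against 7.02 to 8.11 CPM in WT at 24 h. The 3 gamma-delta T cell markers summed to 5.77 to 10.7 CPM in KKO against 3.01 to 4.32 CPM in WT at 48 h, and to 5.58 to 8.26 CPM in KKO against 3.89 to 4.1 CPM in WT at 24 h. The B cell, regulatory T cell, CD8 and gamma-delta sums were thus higher in every KKO library than in every WT library of the same time. The 5 macrophage markers summed to 15.1 to 21.8 CPM in KKO against 13.1 to 14.8 CPM in WT at 48 h, all higher, and to 12.5 to 14.3 CPM in KKO against 14.5 to 15.8 CPM in WT at 24 h, all lower. The 6 dendritic cell markers summed to 2.76 to 3.44 CPM in KKO against 1.88 to 2.72 CPM in WT at 24 h, all higher, and overlapped at 48 h (4.4 to 6.21 CPM in KKO and 4.21 to 5.61 CPM in WT). The 4 NK cell markers summed to at most 2.98 CPM and overlapped at both times. The part of these cells in the differences below was not tested. Clec9a was at 0 in all groups, Siglech in both 48 h groups, Lyz2 in KKO at 48 h and Csf1r in WT at 48 h.

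Sex-linked transcripts differed between libraries of a group. Of the 12 libraries, 6 held Xist, which is made from the inactive X chromosome of females, with little or no Y-linked RNA, 4 held Y-linked RNA and under 1 CPM of Xist, and 2 held both (replicate 3 of KKO at 48 h and replicate 1 of KKO at 24 h). In each WT group replicates 1 and 2 were of the Xist kind and replicate 3 of the Y-linked kind; replicate 1 of KKO at 48 h and replicate 3 of KKO at 24 h were of the Y-linked kind, and KKO replicate 2 at both times of the Xist kind. KKO replicate 2 at 48 h also stood apart across all genes, with Spearman correlations of 0.9894 and 0.9917 to replicates 1 and 3, which correlated at 0.9965 with each other. Calls given below between KKO and WT, or between the times, that change without the 2 mixed libraries together or without this replicate 2 are given with and without them. Without this replicate 2, KKO at 48 h holds no library of the Xist kind, while WT replicates 1 and 2 are of that kind. Genotype and sex-linked reading are then partly confounded at 48 h. Fewer cells of a type and less RNA per cell cannot be told apart in bulk libraries such as these.

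At 48 h, KKO cells differed from WT cells in 8 of the 10 genes at an adjusted p under 0.05, 5 higher (Tnfrsf8, Tnfrsf9, Tnfsf14, Tnfrsf18 and Tnfrsf1b) and 3 lower (Cd40lg, Tnfsf11 and Cd27). The background in the same test was 24.3% of all genes, 12.4% higher and 11.9% lower. Of the receptors 4 rose and 1 fell; of the ligands 1 rose and 2 fell. The sizes were unequal: Tnfrsf8 was 8.16-fold higher, Cd40lg 1.97-fold and Tnfsf11 2.00-fold lower, Tnfrsf9 1.55-fold higher, and the other 4 moved by 1.15- to 1.23-fold. The median log2 fold change of the 10 genes was 0.08, against -0.00 for all genes tested. At 24 h only Tnfrsf8 (higher) and Cd27 (lower) passed, 2 of 10 genes against a background of 2.33% (1.89% higher, 0.432% lower). All tests were edgeR's quasi-likelihood test on 1 fit of the 12 libraries with Benjamini-Hochberg adjustment over all genes tested, and a gene is called higher or lower below only where that adjusted p was under 0.05.

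**Figure D1:**
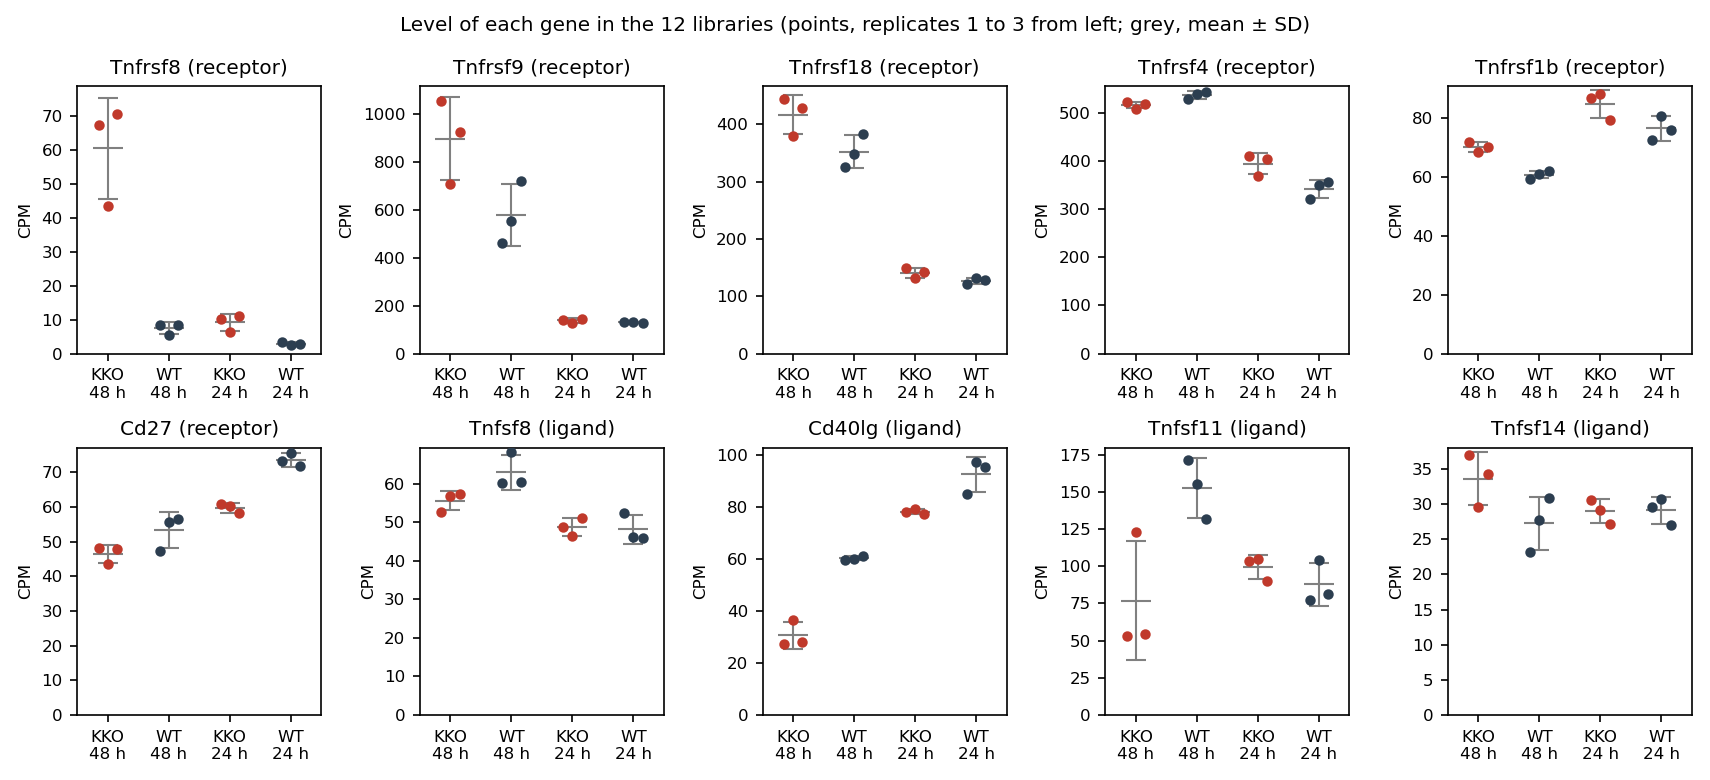
Level of each of the 10 genes in CPM (y axis, linear from 0) in the 4 groups (x axis); points are the 12 libraries, replicates 1 to 3 from left, and grey bars are mean ± SD of 3 libraries. In the Tnfrsf8 panel the KKO libraries at 48 h lie at 43.5 to 70.5 CPM and every other library is at or under 11.0 CPM, and in the Cd40lg panel the KKO libraries at 48 h lie at 27.2 to 36.5 CPM, below all other libraries.

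Tnfrsf8 encodes CD30, a receptor that appears on T cells after activation and is best known from Hodgkin lymphoma cells. At 48 h it stood at 67.2, 43.5 and 70.5 CPM in the KKO libraries (replicates 1 to 3), against 8.49, 5.48 and 8.35 CPM in the WT libraries. At 24 h the values were 10.2, 6.24 and 11.0 CPM in KKO, against 3.36, 2.59 and 2.86 CPM in WT. The KKO and WT libraries did not overlap at either time, and replicate 2 was the lowest KKO library both times. The log2 fold change of KKO over WT was 3.03 ± 0.25 at 48 h (SE; edgeR quasi-likelihood test, adjusted p = 2.98e-05) and 1.65 ± 0.28 at 24 h (SE; edgeR, adjusted p = 0.0101), 8.16-fold and 3.13-fold. Among libraries of the Xist kind alone KKO was 43.5 CPM and WT 8.49 and 5.48 CPM at 48 h, and among those of the Y-linked kind KKO was 67.2 CPM and WT 8.35 CPM. Without both libraries that held mixed sex-linked transcripts the log2 fold change was 2.90 at 48 h (edgeR, adjusted p = 0.00045) and 1.56 at 24 h (edgeR, adjusted p = 0.0534), so that the 24 h call was lost. The gene rested on 768 to 1477 counts per KKO library at 48 h and on 80 to 94 counts per WT library at 24 h, the fewest of the 10 genes. Tnfsf8, which encodes the CD30 ligand, did not pass at either time: it stood at 52.8, 56.8 and 57.2 CPM in KKO against 60.2, 68.2 and 60.3 CPM in WT at 48 h, and at 48.7, 46.4 and 51.1 CPM in KKO against 52.5, 46.1 and 46.0 CPM in WT at 24 h. All 3 KKO libraries were below all WT libraries at 48 h, with a log2 fold change of -0.18 ± 0.07 (SE; edgeR, adjusted p = 0.0731), and the groups overlapped at 24 h (0.02 ± 0.07, adjusted p = 0.991). Without KKO replicate 2 at 48 h the 48 h value of Tnfsf8 was -0.21 and passed (edgeR, adjusted p = 0.0402).

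The promoter windows that RefSeq gives for these genes in build GRCm38.p6 were searched, from 250 bases before to 50 bases after each start site, because KEAP1 acts through NRF2 and TNF receptors through NF-κB. The table held 10 windows for 9 of the genes; Cd40lg had no entry. The core of the antioxidant response element was searched as TGACNNNGC, and the κB motif is GGG and CC with any 5 bases between, each on both strands and with overlapping matches counted; in the letters below capitals mark every match of either. The sequences shown are those of genes with the largest differences at 48 h, each 5′ to 3′ along its gene, at chr4:145315115-145315414 (minus strand) for Tnfrsf8, chr4:150919905-150920204 and chr4:150927749-150928048 (plus strand) for the first and second start of Tnfrsf9, and chr14:78307994-78308293 (minus strand) for Tnfsf11.
Tnfrsf8: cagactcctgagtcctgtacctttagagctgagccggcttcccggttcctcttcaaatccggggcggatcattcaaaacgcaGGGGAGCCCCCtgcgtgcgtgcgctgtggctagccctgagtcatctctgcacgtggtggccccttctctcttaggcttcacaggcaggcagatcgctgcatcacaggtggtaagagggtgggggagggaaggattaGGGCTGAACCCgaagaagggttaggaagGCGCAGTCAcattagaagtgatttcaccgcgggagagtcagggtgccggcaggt
Tnfrsf9, first start: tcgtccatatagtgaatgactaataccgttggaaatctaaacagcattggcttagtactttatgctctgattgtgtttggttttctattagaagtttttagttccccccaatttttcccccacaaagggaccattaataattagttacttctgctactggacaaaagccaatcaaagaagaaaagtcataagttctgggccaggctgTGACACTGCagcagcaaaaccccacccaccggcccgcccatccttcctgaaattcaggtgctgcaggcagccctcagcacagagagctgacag
Tnfrsf9, second start: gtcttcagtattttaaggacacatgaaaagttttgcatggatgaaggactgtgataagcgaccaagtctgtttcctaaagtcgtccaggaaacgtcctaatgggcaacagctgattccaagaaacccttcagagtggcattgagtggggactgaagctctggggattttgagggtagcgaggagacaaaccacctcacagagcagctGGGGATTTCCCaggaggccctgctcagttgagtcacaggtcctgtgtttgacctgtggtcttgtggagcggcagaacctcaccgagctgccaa
Tnfsf11: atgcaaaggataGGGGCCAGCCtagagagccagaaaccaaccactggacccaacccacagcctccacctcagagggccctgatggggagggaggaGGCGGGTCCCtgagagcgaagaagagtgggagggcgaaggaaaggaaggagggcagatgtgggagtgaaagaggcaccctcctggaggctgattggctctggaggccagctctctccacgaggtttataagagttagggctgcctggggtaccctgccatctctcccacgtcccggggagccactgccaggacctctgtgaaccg
An antioxidant response element core was found in 2 of the 10 windows, against 12.4% of 32851 windows of the same length over all genes. In Tnfrsf8 it lies on the opposite strand, as GCGCAGTCA, with its first base at -4 so that it spans the start site. In the first window of Tnfrsf9 it reads TGACACTGC with its first base at -43. The κB motif was found in 6 of the 10 windows, against 50.8% of all windows. Tnfrsf8 had 4 overlapping matches in 2 places, starting at -168, -167, -32 and -31, the second window of Tnfrsf9 had matches at -43 and -42, and Tnfsf11 had matches at -238 and -155. A match describes these letters and is not evidence of binding.

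Tnfrsf9 encodes 4-1BB (CD137), a costimulatory receptor of activated T cells. At 48 h it stood at 1055, 711 and 926 CPM in KKO, against 464, 554 and 721 CPM in WT; at 24 h it stood at 142, 128 and 145 CPM in KKO, against 131, 129.9 and 129 CPM in WT. KKO replicate 2 and WT replicate 3 overlapped at 48 h, and the groups overlapped at 24 h. The log2 fold change was 0.63 ± 0.16 at 48 h (SE; edgeR, adjusted p = 0.0146) and 0.09 ± 0.16 at 24 h (SE; edgeR, adjusted p = 0.962). The overlap at 48 h was between libraries of different sex-linked reading: among the Xist kind KKO was 711 CPM and WT 464 and 554 CPM, and among the Y-linked kind KKO was 1055 CPM and WT 721 CPM. With the share of Y-linked RNA as a covariate, an alternative chosen after seeing the data, the 48 h log2 fold change was 0.51 (edgeR, adjusted p = 0.0023). Without both mixed libraries it was 0.61 (edgeR, adjusted p = 0.0706), no longer past the threshold.

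Tnfrsf18 encodes GITR, a costimulatory receptor that regulatory T cells carry at high level. Its values were 444, 379.8 and 428 CPM in KKO against 327, 349 and 383 CPM in WT at 48 h, and 149, 131 and 143 CPM in KKO against 122, 132 and 128 CPM in WT at 24 h. The groups overlapped at both times, at 48 h through KKO replicate 2 and WT replicate 3 only. It was higher at 48 h with a log2 fold change of 0.24 ± 0.08 (SE; edgeR, adjusted p = 0.0305) and did not pass at 24 h (0.15 ± 0.08, adjusted p = 0.514). Tnfrsf1b encodes TNFR2, the TNF receptor that lacks a death domain. It stood at 71.7, 68.2 and 70.2 CPM in KKO against 59.2, 60.8 and 61.7 CPM in WT at 48 h, and at 86.5, 87.9 and 79.1 CPM in KKO against 72.4, 80.7 and 75.8 CPM in WT at 24 h. The groups did not overlap at 48 h, where the difference was small and even (0.21 ± 0.06 SE; edgeR, adjusted p = 0.0176), and overlapped at 24 h (0.15 ± 0.06, adjusted p = 0.274). Without both mixed libraries neither 48 h call passed: Tnfrsf18 was 0.22 (edgeR, adjusted p = 0.118) and Tnfrsf1b 0.21 (edgeR, adjusted p = 0.0719). In the fit of all libraries Tnfrsf18 passed at 48 h only. The difference of its KKO effect between the times did not pass (0.09, edgeR adjusted p = 0.646). The part of regulatory T cells in its values was not tested. The regulatory T cell marker sum was higher in KKO at both times as given above. All 4 of these markers had values above 0 at 48 h (0.47 to 0.64). Ikzf4, the Eos gene, passed at 48 h (0.64 ± 0.11 SE; edgeR, adjusted p = 0.00119) and at 24 h (0.71 ± 0.12 SE; edgeR, adjusted p = 0.00356). Ikzf2, the Helios gene, passed at 48 h (0.60 ± 0.17 SE; edgeR, adjusted p = 0.0214) but not without both mixed libraries (0.61, adjusted p = 0.0759); at 24 h it did not pass (0.55; edgeR, adjusted p = 0.0958) but did without KKO replicate 2 at 48 h (0.56; edgeR, adjusted p = 0.0175). Foxp3, the defining factor of those cells, stood at 5.26, 2.29 and 3.90 CPM in KKO against 3.22, 2.19 and 2.97 CPM in WT at 48 h and did not pass (0.47 ± 0.24 SE; edgeR, adjusted p = 0.162), except without KKO replicate 2 (0.71, adjusted p = 0.00579). Lrrc32, the GARP gene, did not pass at 48 h either (0.51 ± 0.20 SE; edgeR, adjusted p = 0.0769). It passed without KKO replicate 2 (0.73, edgeR adjusted p = 0.000144) and by DESeq2 (0.50, adjusted p = 0.0428). At 24 h Lrrc32 did not pass (0.63, edgeR adjusted p = 0.179), but did without KKO replicate 2 at 48 h (0.63, adjusted p = 0.00325). From 24 h to 48 h Ikzf4 rose by 1.12 in KKO and 1.19 in WT, and Lrrc32 by 0.91 and 1.03. The marker sum also rose, so it does not follow Foxp3 over time.

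Tnfrsf4 encodes OX40, which sustains CD4+ T cells after priming. It stood at 523, 509.6 and 519 CPM in KKO against 529.6, 539 and 545 CPM in WT at 48 h, and at 411, 369 and 405 CPM in KKO against 321, 351 and 357 CPM in WT at 24 h. The KKO libraries lay all below the WT libraries at 48 h and all above them at 24 h, and neither difference passed the test: the log2 fold changes were -0.06 ± 0.06 (SE; edgeR, adjusted p = 0.507) and 0.20 ± 0.06 (SE; edgeR, adjusted p = 0.101). In a fit of only the 6 libraries compared, the 24 h value was 0.21 with an adjusted p of 0.0322 by edgeR, and without KKO replicate 2 at 48 h it was 0.21 with an adjusted p of 0.0226. Without both mixed libraries the 24 h value of Tnfrsf4 was 0.18 (edgeR, adjusted p = 0.415), and it passed in 6 of 22 alternatives. Cd27 encodes a receptor that naive T cells already carry. It stood at 48.1, 43.5 and 47.9 CPM in KKO against 47.3, 55.8 and 56.7 CPM in WT at 48 h, and at 61.0, 60.2 and 58.2 CPM in KKO against 73.4, 75.6 and 71.8 CPM in WT at 24 h. The groups overlapped at 48 h through WT replicate 1, and did not overlap at 24 h. It was the only receptor of the 6 that was lower in KKO, with log2 fold changes of -0.20 ± 0.07 at 48 h (SE; edgeR, adjusted p = 0.0476) and -0.30 ± 0.07 at 24 h (SE; edgeR, adjusted p = 0.0258). Within each sex-linked reading the KKO library of Cd27 was below the WT libraries at both times, but neither call passed without both mixed libraries (-0.22 with an adjusted p of 0.106 at 48 h and -0.31 with an adjusted p of 0.108 at 24 h, both edgeR). The 48 h call of Cd27 was also lost without KKO replicate 2 at 48 h (-0.17; edgeR, adjusted p = 0.0605).

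Cd40lg encodes CD40 ligand, the signal by which helper T cells license B cells and dendritic cells. At 48 h it stood at 27.2, 36.5 and 28.3 CPM in KKO, against 59.7, 60.1 and 61.3 CPM in WT. At 24 h it stood at 78.1, 79.3 and 77.6 CPM in KKO, against 85.1, 97.4 and 95.5 CPM in WT. The KKO libraries lay below all WT libraries at both times, without overlap. The log2 fold change was -0.98 ± 0.09 at 48 h (SE; edgeR, adjusted p = 1.18e-05) and -0.24 ± 0.08 at 24 h (SE; edgeR, adjusted p = 0.195, not called). Without KKO replicate 2 at 48 h the 24 h value was still -0.24 and passed (edgeR, adjusted p = 0.00968). The 48 h call held in all 22 alternatives, between -1.13 and -0.90. Cd40lg is on the X chromosome, and within each sex-linked reading KKO was lower at 48 h: 36.5 CPM against 59.7 and 60.1 CPM among the Xist kind, and 27.2 CPM against 61.3 CPM among the Y-linked kind. The receptor gene Cd40, mostly known from B cells and antigen-presenting cells, was higher in KKO at low levels, at 3.74, 6.51 and 2.82 CPM against 2.50, 2.21 and 1.95 CPM in WT at 48 h (0.96 ± 0.25 SE; edgeR, adjusted p = 0.0147) and at 5.47, 6.32 and 5.28 CPM against 2.97, 2.74 and 3.18 CPM in WT at 24 h (0.94 ± 0.23 SE; edgeR, adjusted p = 0.0465). Cd40 was highest in KKO replicate 2 at 48 h, and without that library its 48 h value was 0.55 (edgeR, adjusted p = 0.0396). The 24 h call of Cd40 held in 9 of 22 alternatives and was lost without both mixed libraries (0.97; edgeR, adjusted p = 0.0712). The summed B cell markers were also higher in every KKO library than in every WT library of the same time. The part of B cells in the Cd40 values was not tested.

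Tnfsf11 encodes RANKL, the cytokine that drives osteoclast formation and that activated T cells also make. At 48 h it stood at 52.9, 123 and 54.7 CPM in KKO, against 172, 156 and 131 CPM in WT. At 24 h it stood at 104, 105 and 90.1 CPM in KKO, against 77.3, 104 and 81.5 CPM in WT. At 48 h all KKO libraries were below all WT libraries, but KKO replicate 2 lay close to the WT range and the other KKO libraries far under it; at 24 h the groups overlapped. The log2 fold change was -1.0 ± 0.30 at 48 h (SE; edgeR, adjusted p = 0.0439) and 0.18 ± 0.30 at 24 h (SE; edgeR, adjusted p = 0.956). Without KKO replicate 2 at 48 h it was -1.52 (edgeR, adjusted p = 7.53e-05), and without both mixed libraries -0.80 (edgeR, adjusted p = 0.171). The Xist kind alone gave 123 CPM in KKO against 172 and 156 CPM in WT at 48 h, and the Y-linked kind 52.9 CPM in KKO against 131 CPM in WT. Tnfsf14 encodes LIGHT, a ligand of HVEM and of the lymphotoxin beta receptor. It stood at 37.0, 29.6 and 34.3 CPM in KKO against 23.2, 27.7 and 30.8 CPM in WT at 48 h, with overlapping groups, and was higher in KKO by 0.30 ± 0.10 (SE; edgeR, adjusted p = 0.0474). At 24 h it stood at 30.6, 29.2 and 27.2 CPM in KKO against 29.6, 30.8 and 27.0 CPM in WT (-0.01 ± 0.10 SE; edgeR, adjusted p = 1). Without both mixed libraries the 48 h value of Tnfsf14 was 0.29 and did not pass (edgeR, adjusted p = 0.154). The 48 h call of Tnfsf14 held in 6 of 22 alternatives and that of Tnfsf11 in 8 of 22, against all 22 for Tnfrsf8 and Cd40lg, 18 for Tnfrsf9, 16 each for Tnfrsf18 and Tnfrsf1b and 6 for Cd27.

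Read without a threshold, 6 of the 10 genes did not overlap between KKO and WT at 48 h (background 33.3% of all genes), and 4 did not overlap at 24 h (background 19.4%). Within the libraries of 1 sex-linked reading, 1 KKO library was set against 2 WT libraries of the Xist kind and 1 against 1 of the Y-linked kind. At 48 h all 10 genes lay on the same side of WT in both readings, 5 higher and 5 lower. The lower genes at 48 h include Tnfrsf4 and Tnfsf8, which did not pass the test there. At 24 h this agreement of side held for 4 genes that were higher and 2 that were lower, and not for the other 4. The share of all genes with such agreement was not computed, so these counts have no background beside them.

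**Figure D2:**
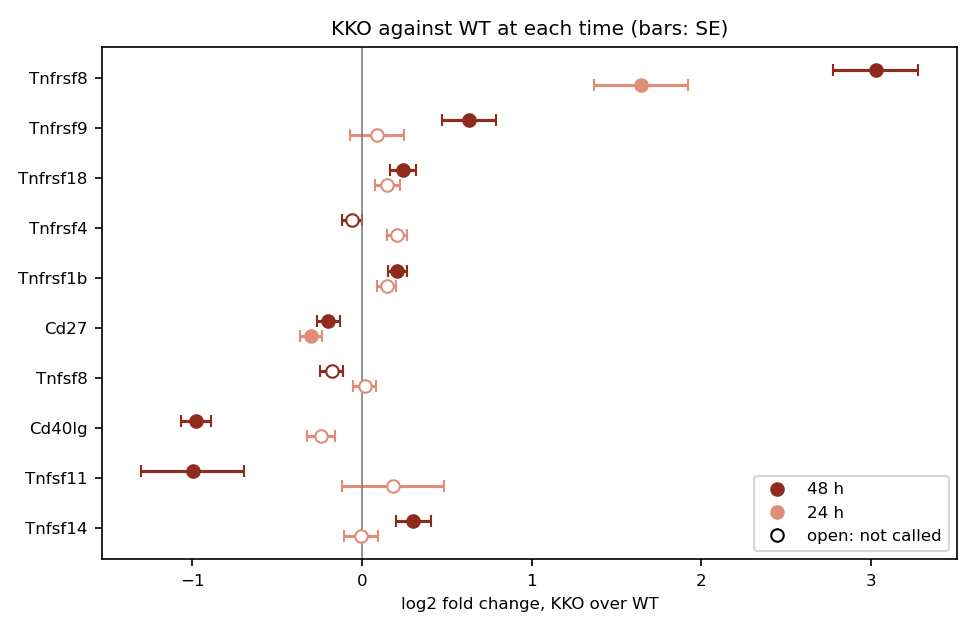
Log2 fold change of KKO over WT (x axis) for the 10 genes (rows) at 48 h (dark, upper) and 24 h (light, lower); bars are SE, filled points have an adjusted p under 0.05. Tnfrsf8 lies at 3.03 and 1.65, Cd40lg at -0.98 and -0.24 and Tnfsf11 at -1.0 and 0.18, while the other receptors stay between -0.30 and 0.63.

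The comparison of 48 h with 24 h shows how these genes differed after a further day of activation in each genotype. In KKO, 8 of the 10 genes passed, 5 higher and 3 lower at 48 h, against a background of 67.8% of all genes (34.4% higher, 33.4% lower). In WT, 9 passed, 6 higher and 3 lower, against a background of 60.8% (31% higher, 29.7% lower). Most genes passed in both comparisons, so these counts are not particular to the 10. Without a threshold, 8 genes did not overlap between the times in KKO (background 70.4%) and 9 in WT (background 68.4%).

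Of the receptors 4 were higher at 48 h and 2 lower, in each genotype. Tnfrsf9 averaged 897 ± 174 CPM at 48 h against 138 ± 9.22 CPM at 24 h in KKO, and 579 ± 131 CPM at 48 h against 130.0 ± 1.21 CPM at 24 h in WT (SD, n = 3). The log2 fold changes of 48 h over 24 h were 2.70 ± 0.17 in KKO (SE; edgeR, adjusted p = 7.13e-08) and 2.16 ± 0.16 in WT (SE; edgeR, adjusted p = 5.05e-07). Tnfrsf18 was higher by 1.57 ± 0.08 in KKO and 1.47 ± 0.08 in WT (SE; edgeR, adjusted p = 8.96e-10 and 1.42e-09), nearly the same change in both. Tnfrsf8 was higher by 2.72 ± 0.24 in KKO and 1.34 ± 0.29 in WT (SE; edgeR, adjusted p = 1.65e-06 and 0.0018), and Tnfrsf4 by 0.39 ± 0.06 in KKO and 0.65 ± 0.06 in WT (SE; edgeR, adjusted p = 3.33e-05 and 3.28e-07). The receptors that fell were Tnfrsf1b, by 0.27 in KKO and 0.33 in WT, and Cd27, by 0.36 in KKO and 0.46 in WT, on the log2 scale (edgeR, adjusted p at most 0.000599).

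Of the ligands, Cd40lg fell in both genotypes, by 1.36 ± 0.09 on the log2 scale in KKO and by 0.62 ± 0.08 in WT (SE; edgeR, adjusted p = 1.25e-08 and 1.77e-05). Tnfsf11 was higher at 48 h in WT (0.80 ± 0.30 SE; edgeR, adjusted p = 0.0438) and did not pass in KKO (-0.38 ± 0.30 SE; edgeR, adjusted p = 0.294). Without KKO replicate 2 at 48 h the KKO value of Tnfsf11 was -0.90 (edgeR, adjusted p = 0.000488). The WT call of Tnfsf11 held in 13 of 22 alternatives. Tnfsf8 was higher by 0.19 ± 0.07 in KKO and by 0.39 ± 0.07 in WT (SE; edgeR, adjusted p = 0.0247 and 0.000202). The KKO call of Tnfsf8 held in 16 of 22 alternatives and was lost without both mixed libraries (0.17; edgeR, adjusted p = 0.134) and without KKO replicate 2 at 48 h (0.16; edgeR, adjusted p = 0.0679). Tnfsf14 did not pass in KKO (0.21 ± 0.10 SE; edgeR, adjusted p = 0.0792) or in WT (-0.09 ± 0.10 SE; edgeR, adjusted p = 0.447), and without KKO replicate 2 at 48 h it passed in KKO (0.28; edgeR, adjusted p = 0.0198).

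**Figure D3:**
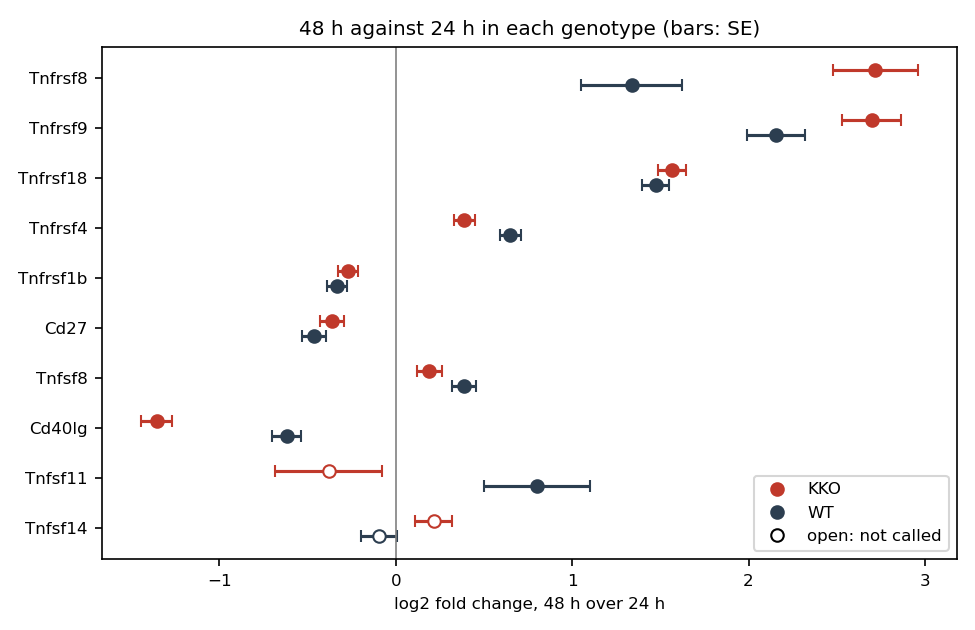
Log2 fold change of 48 h over 24 h (x axis) for the 10 genes (rows) in KKO (red, upper) and WT (dark blue, lower); bars are SE, filled points have an adjusted p under 0.05. Tnfrsf8 lies at 2.72 in KKO and 1.34 in WT, Cd40lg at -1.36 in KKO and -0.62 in WT, and Tnfsf11 has a value below 0 in KKO and above 0 in WT.

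Whether the effect of Keap1 loss differed between the times was tested as the difference of the KKO effects, 48 h minus 24 h. Cd40lg passed, with -0.74 ± 0.12 on the log2 scale (SE; edgeR, adjusted p = 0.00602), 1 of the 10 genes lower at 48 h, against a background of 4.18% (1.46% higher, 2.72% lower). It did not pass without both mixed libraries (-0.68, edgeR adjusted p = 0.0702). Tnfrsf8 had a difference of 1.38 ± 0.37 (SE; edgeR, adjusted p = 0.062), Tnfrsf4 -0.26 ± 0.08 (SE; edgeR, adjusted p = 0.0848), Tnfsf11 -1.18 ± 0.43 (SE; edgeR, adjusted p = 0.15) and Tnfrsf9 0.54 ± 0.22 (SE; edgeR, adjusted p = 0.179). These 4 did not pass, but each passed without KKO replicate 2 at 48 h, and each passed with the share of Y-linked RNA as a covariate. The adjusted p with that covariate was 0.00546 for Tnfrsf8, 0.0325 for Tnfrsf4, 0.0484 for Tnfsf11 and 0.0259 for Tnfrsf9 (edgeR). None of the 4 passed without both mixed libraries. The edgeR adjusted p there was 0.178 for Tnfrsf8, 0.275 for Tnfrsf4, and 0.357 each for Tnfsf11 and Tnfrsf9. Of 21 alternatives, the difference passed in 5 for Tnfrsf8, 4 for Tnfrsf4, and 3 each for Tnfsf11 and Tnfrsf9. The other 5 genes had differences between -0.20 and 0.31 and adjusted p of at least 0.226.

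Levels were compared between genes per length, as CPM per kilobase of exon. Tnfrsf4 was the highest of the 10 in every group, at 379 ± 4.84 in KKO and 394 ± 5.54 in WT at 48 h, and 289 ± 16.6 in KKO and 251 ± 14 in WT at 24 h (CPM per kilobase, SD, n = 3). At 24 h Tnfrsf18 and Cd40lg followed, and no neighbours in the order overlapped between libraries in either genotype. At 48 h Tnfrsf9 reached 329.6 in KKO and 213 in WT. Tnfrsf9 and Tnfrsf18 then overlapped in both genotypes, and Tnfrsf4 and Tnfrsf9 in KKO. Tnfrsf8 was the lowest of the 10 in WT at 48 h (2.15 CPM per kilobase) and in both 24 h groups (2.65 in KKO and 0.848 in WT). In KKO at 48 h it reached 17.5 ± 4.26 CPM per kilobase and could not be told apart from Tnfsf14 above it or from Tnfsf8, the gene of its own ligand, below it. The ligand gene Tnfsf8 stood at 14.6 ± 0.646 in KKO and 16.5 ± 1.2 CPM per kilobase in WT at 48 h.

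In build mm10, 6 of the 10 genes lie on chromosome 4, and some are close neighbours. Tnfrsf1b (145213463 to 145246870, minus strand) and Tnfrsf8 (145267137 to 145315164, minus strand) are 20.3 kb apart, and their log2 fold changes at 48 h were 0.21 and 3.03. Tnfrsf4 (156013843 to 156016612, plus strand) and Tnfrsf18 (156026164 to 156028895, plus strand) are 9.55 kb apart, with -0.06 and 0.24. Tnfrsf9 lies between these pairs (150914562 to 150946102, plus strand) and Tnfsf8 far off (63831308 to 63861347, minus strand). Cd27 is on chromosome 6, Tnfsf11 on 14, Tnfsf14 on 17 and Cd40lg on X.

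The binding partners of the members were read whatever their values. Tnfsf4, the OX40 ligand gene, stood at 3.44, 5.55 and 3.10 CPM in KKO against 8.32, 9.68 and 5.46 CPM in WT at 48 h, and was lower by 0.97 ± 0.22 on the log2 scale (SE; edgeR, adjusted p = 0.00757). WT replicate 3 lay within the KKO range, and without both mixed libraries the adjusted p was 0.0635 by edgeR. Tnf, the ligand gene of TNFR2, stood at 29.9, 39.4 and 33.3 CPM in KKO against 50.7, 51.8 and 56.9 CPM in WT at 48 h, all lower (-0.64 ± 0.09 SE; edgeR, adjusted p = 0.00042), and did not pass at 24 h, with means of 110 CPM in KKO and 100.1 CPM in WT (0.14 ± 0.09 SE; edgeR, adjusted p = 0.681). Lta, the lymphotoxin alpha gene, averaged 222 CPM in KKO and 188 CPM in WT at 48 h and did not pass (edgeR, adjusted p = 0.222). Neither did Tnfsf9, the 4-1BB ligand gene, at 6.88 CPM in KKO and 6.77 CPM in WT, Cd70, the CD27 ligand gene, at 0.752 CPM in KKO and 1.21 CPM in WT, Tnfrsf14, the HVEM gene, at 13.4 CPM in KKO and 14.4 CPM in WT, or Ltbr at 0.888 CPM in KKO and 0.453 CPM in WT (all means at 48 h; edgeR, adjusted p at least 0.107). Without KKO replicate 2 at 48 h Cd70 passed as lower (-1.19; edgeR, adjusted p = 0.0214). Tnfrsf11a, the RANK gene, had 25 counts over the 12 libraries together and Tnfsf18, the GITR ligand gene, 1 count, and neither entered the test.

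Beyond the 10, a list of 36 other ligand and receptor genes of the superfamily held 25 that passed the filter on low counts. At 48 h, 5 of these were higher and 5 lower in KKO, 40% of those tested against 24.3% of all genes, with a median log2 fold change of 0.09. The receptors that rose were Tnfrsf23 (2.25 ± 0.41), Tnfrsf26 (1.38 ± 0.23), Cd40 as above, Tnfrsf13b, the TACI gene (0.54 ± 0.18), and Tnfrsf25, the DR3 gene (0.40 ± 0.13), as log2 fold change with SE and adjusted p by edgeR of 0.00168, 0.00136, 0.0147, 0.0405 and 0.0382. The calls of Tnfrsf13b and Tnfrsf25 held in 14 and 12 of 22 alternatives, and neither passed without both mixed libraries (0.50 and 0.40; edgeR, adjusted p = 0.144 and 0.117). Tnfrsf26 stood at 15.9, 7.70 and 13.8 CPM in KKO against 4.68, 3.94 and 5.88 CPM in WT, without overlap. Tnfrsf23 and Tnfrsf26 are close paralogs in a mouse gene cluster with Tnfrsf22, so the split of reads between them is uncertain. Fas, the death receptor gene, stood at 21.7, 21.1 and 21.8 CPM in KKO against 25.6, 27.6 and 29.7 CPM in WT, lower in KKO by 0.36 ± 0.08 on the log2 scale (SE; edgeR, adjusted p = 0.00462). The other receptors that fell, named after their values were seen, were Tnfrsf10b (-0.26; -0.24 with an adjusted p of 0.102 by edgeR without both mixed libraries) and Tnfrsf19 (-1.70, at a mean under 1 CPM), and the ligands that fell were Tnf and Tnfsf4. At 24 h 1 of the 25 passed, Cd40, against a background of 2.33%, with a median of 0.05. The 11 genes that did not enter the test had group means of at most 0.367 CPM.

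Between the times, 9 of the 25 were higher and 6 lower at 48 h in KKO, and 8 higher and 5 lower in WT. These are 60% of the 25 in KKO, against 67.8% of all genes, and 52% in WT, against 60.8% of all genes. Examples named after their values were seen are Ltb, the lymphotoxin beta gene, Fasl and Tnfsf10, the TRAIL gene, which were higher in both genotypes, and Tnf and Tnfrsf21, the DR6 gene, which were lower in both.

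Downstream of the receptors, 15 adaptor genes were tested, and at 48 h 2 were higher and 1 lower in KKO (median 0.01), 20% of the list against 24.3% of all genes. Traf1, which binds several of these receptors and is itself induced by NF-κB, stood at 279, 193 and 241 CPM in KKO against 161, 162 and 179 CPM in WT, without overlap (0.51 ± 0.10 SE; edgeR, adjusted p = 0.00337). Traf5 stood at 8.16, 8.15 and 8.12 CPM in KKO against 11.9, 13.2 and 12.1 CPM in WT (-0.61 ± 0.08 SE; edgeR, adjusted p = 0.000231). Map3k14, the NIK kinase gene of the alternative NF-κB pathway, was higher by 0.17 ± 0.06 (SE; edgeR, adjusted p = 0.0427), a call that held in 7 of 22 alternatives and was lost without both mixed libraries (0.13; edgeR, adjusted p = 0.204). Of 16 NF-κB factors and regulators, 4 were higher and 8 lower (median -0.21), 75% of the list against 24.3% of all genes (12.4% higher, 11.9% lower). Bcl3, a nuclear partner of p50 and p52, stood at 143, 96.9 and 136 CPM in KKO against 55.5, 54.4 and 73.1 CPM in WT (1.04 ± 0.20 SE; edgeR, adjusted p = 0.00593). Rel, the c-Rel gene, stood at 35.3, 49.2 and 37.8 CPM in KKO against 77.3, 76.5 and 66.7 CPM in WT (-0.85 ± 0.12 SE; edgeR, adjusted p = 0.000556). Nfkbid (-0.64), Nfkb2 (-0.46) and Nfkbie (-0.39) were also lower, and Tnfaip3, the gene of the NF-κB inhibitor A20, higher (0.38), with adjusted p of 0.000842, 0.00163, 0.00496 and 0.000966 by edgeR. At 24 h none of the 15 adaptors or the 16 NF-κB genes passed. Without KKO replicate 2 at 48 h, Nfkbid passed at 24 h as lower (-0.26, edgeR adjusted p = 0.00642). Bcl3 passed at 24 h in 4 of 22 alternatives, and Nfkbid and Rel in 2 of 22 each.

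**Figure D4:**
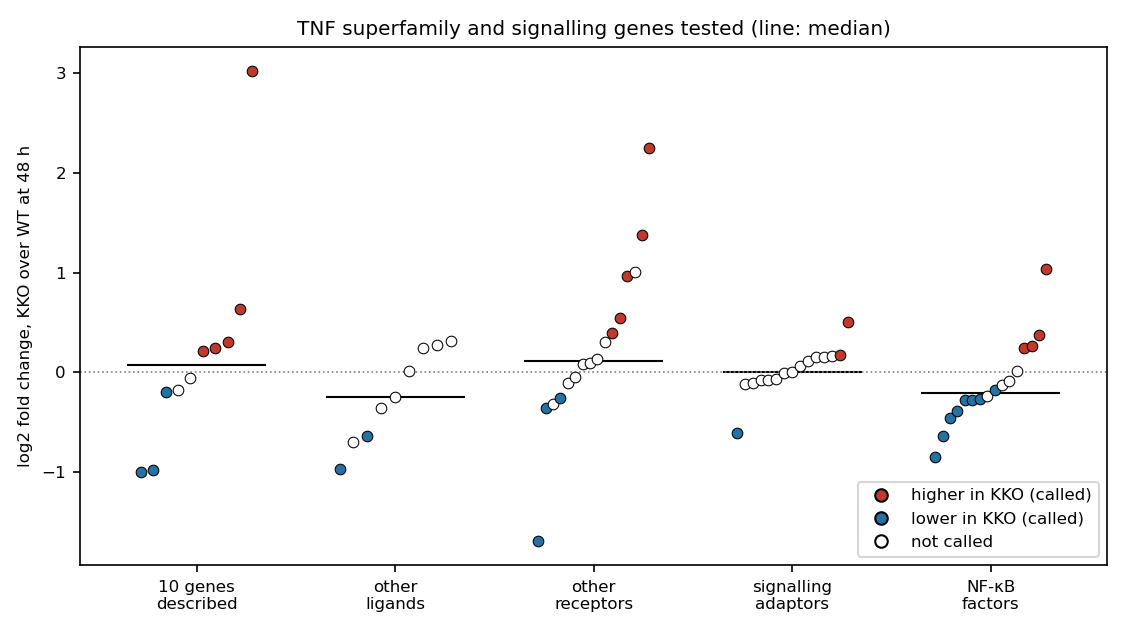
Log2 fold change of KKO over WT at 48 h (y axis) for each gene tested, in 5 lists (x axis): the 10 genes described, 9 other ligands, 16 other receptors, 15 signalling adaptors and 16 NF-κB factors; filled points have an adjusted p under 0.05, red higher and blue lower in KKO, and lines are medians. Tnfrsf8 at 3.03 is the highest point, and the NF-κB list has 8 blue and 4 red points.

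Tnfrsf8 had the widest range of the 10 genes over the 12 libraries, 4.72 on the log2 CPM scale. The genes whose pattern was most like it were sought among 10682 genes, by the root mean square difference of centred log2 CPM over the 12 libraries. They were Lilrb4a (0.32), Atp2b4 (0.46), Plac8 (0.48), Sox5 (0.52) and Lgals3 (0.53). Lilrb4a averaged 25.5 CPM in KKO against 4.99 CPM in WT at 48 h, and 3.68 CPM in KKO against 1.45 CPM in WT at 24 h.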

How the data were processed

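RNA was sequenced as paired-end mRNA libraries from 12 samples, 3 in each of the 4 groups of genotype and time. Per the submitters' processing notes, the authors used FastQC for read quality and RSEM for counting, on build mm10. The series text speaks of a human reference, whereas organism label and symbols are mouse. Versions, aligner, annotation and strand setting are not stated in the sources used. The deposited values are RSEM expected counts per gene symbol, with 10.8% to 12.7% of values per library not whole. Of the 120 values of the 10 genes 5 were not whole, all of Tnfrsf1b. The table also holds 6 columns of other samples, which were not used, and 1 row that names no gene, with at most 2 counts in a library, which was left out.

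Counts were rounded, filtered with filterByExpr (minimum count of 10), scaled by TMM and fitted with edgeR 4.0.16 (quasi-likelihood F test, robust) in R 4.3.3, a mean for each group and 8 residual degrees of freedom. Calls required a Benjamini-Hochberg adjusted p under 0.05 among 13196 genes; SE is the log2 fold change divided by the square root of F. CPM uses TMM-scaled totals, and CPM per kilobase uses the exon union of GENCODE M21. The scripts were tested on simulated data. In all groups the replicates differed beyond counting noise, and each counted as 1 sample. The alternatives tried were DESeq2 1.42.0, voom in limma 3.58.1, scaling by RLE or upper quartile, no filter and a stricter one, only the libraries compared, a replicate block, leaving out each library or both mixed ones, and stricter thresholds; the share of Y-linked RNA as a covariate was added after seeing the data. Deviations of same-numbered WT libraries correlated at 0.126, 0.103 and 0.343 across time. WT replicate 2 at 48 h and WT replicate 1 at 24 h correlated at 0.151. WT replicate 3 was of the Y-linked kind at both times, and WT replicates 1 and 2 of the Xist kind. Same-numbered KKO libraries correlated at 0.0287, 0.0852 and 0.0408 across time. KKO number 1 of 48 h correlated more, at 0.17, with number 3 of 24 h. In KKO only replicate 2 kept its sex-linked reading. Number 1 was mixed at 24 h and of the Y-linked kind at 48 h, and number 3 the reverse. The KKO numbers 1 and 3 thus did not mark libraries of like reading across time. Whether the other numbers pair the libraries cannot be told from these values, and what the numbers stand for is not in the labels.

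The members, lists and tests were chosen with earlier results of these data known. Beside the members, the text names up to 6 called genes per list at 48 h or 24 h with the largest change and a mean of at least 1 CPM, the binding partners, and the 5 genes most like Tnfrsf8 with a mean of at least 2 CPM.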

Additional observations from a re-analysis of the deposited data

Results flagged for a closer look

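The effect of KKO against WT differed between 48 h and 24 h for 7 of the genes named above, in a test of the difference itself (log2 fold change at 48 h minus that at 24 h; edgeR's quasi-likelihood test, Benjamini-Hochberg adjusted p). The background in this test was 4.18% of all genes. Those of the 7 outside the 10 genes were named because they were called with the largest KKO effects of their lists, so this count is a selected one. Among the 10 genes this was Cd40lg, at -0.74 (adjusted p = 0.00602). Among the other genes it was lower at 48 h for Tnf, at -0.77 (adjusted p = 0.00613), Traf5, at -0.58 (adjusted p = 0.0142), and Nfkb2, at -0.51 (adjusted p = 0.0268). It was higher for Tnfrsf23, at 2.74 (adjusted p = 0.0221), Tnfaip3, at 0.36 (adjusted p = 0.0346), and Tnfrsf26, at 1.33 (adjusted p = 0.045). In each of the 7 the direction was the same without both libraries of mixed sex-linked transcripts, but none passed there: the edgeR adjusted p was 0.0702 for Cd40lg, 0.0703 for Tnf, 0.113 for Traf5, 0.16 for Nfkb2, 0.13 for Tnfrsf23, 0.149 for Tnfaip3 and 0.196 for Tnfrsf26. All 7 passed without KKO replicate 2 at 48 h, a setting that leaves KKO at 48 h with no library of the Xist kind. Groups of 3 libraries are too small for a test of single outlying libraries.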

How the results depend on the processing

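No call of the 50 member results (10 genes in 5 comparisons) changed direction under any alternative run. Of the 28 called, 17 were called in every alternative, and of the 22 not called, 9 were called in at least 1. At 48 h KKO against WT called 8 of the 10 genes and 10 of the 25 others; at 24 h 2 and 1. The difference of effects called 1 and 3, and the time comparisons 8 and 15 in KKO and 9 and 13 in WT.

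Only the libraries compared gave 2 of the 10 and 5 others at 48 h, and 4 and 3 at 24 h. Without both mixed libraries the counts were 2 and 6 at 48 h, 0 and 0 at 24 h, and 0 and 0 for the difference. An adjusted p under 0.01 gave 2 and 6 at 48 h, 0 and 0 at 24 h, and 1 other gene for the difference. A 2-fold minimum gave 1 and 3 at 48 h, 1 and 0 at 24 h, 0 of the 10 for the difference, 4 and 9 across time in KKO, and 3 and 4 in WT. The difference counted 3 of the 10 by DESeq2 and with the stricter filter, 2 of the 10 and 1 other by limma-voom, and 5 of the 10 with the Y-linked covariate. At 24 h the others counted 3 by DESeq2, 2 by limma-voom and with that covariate, and 0 under RLE scaling, upper-quartile scaling and the stricter filter.

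The replicate block counted 6 of the 10 and 9 others at 48 h, and 2 and 1 at 24 h. For the difference it counted 2 of the 10. Across time in WT it kept 9, and it moved the others there to 14. KKO and WT libraries of the same number did not deviate together (-0.249, 0.106 and 0.135 at 48 h; -0.317, -0.00299 and 0.224 at 24 h).

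Leaving out 1 library gave 2 to 8 of the 10 at 48 h (lowest without KKO replicate 1 or 3 at 48 h; 3 without WT replicate 2 and 4 without WT replicate 1 at 48 h) and 5 to 13 others (5 without WT replicate 2 at 48 h). Without any 1 of the WT libraries at 24 h, or KKO replicate 1 or 3 at 24 h, 5 of the 10 passed at 48 h. At 24 h it gave 1 to 4 of the 10 (4 without KKO replicate 2 at 48 h) and 0 to 2 others, and for the difference 1 to 5 of the 10 and 1 to 9 others (5 and 9 without KKO replicate 2 at 48 h). Over all genes the calls moved from 3209 to 1536 at 48 h and from 307 to 524 at 24 h with only the libraries compared, and to 1386 and 107 without both mixed libraries; DESeq2 called 483 at 24 h. Without KKO replicate 2 at 48 h the calls over all genes were 5362 at 48 h and 505 at 24 h. The cause of these changes was not tested. The depth limits Tnfrsf8 in WT most, at 80 to 176 counts per library.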
